A study of Mus musculus with 21 samples.

Results

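The nuclear genes of the mitochondrial respiratory chain and of ATP synthase were followed in the mouse melanoma line B16-F10. They were taken as all probe sets of a single gene whose symbol starts with Nduf, Uqcr, Cox4, Cox5, Cox6, Cox7, Cox8 or Atp5, together with Sdha, Sdhb, Sdhc, Sdhd, Cyc1 and Cycs. This gave 101 probe sets of 73 genes among the 8251 genes measured, and each gene was represented by the probe set with the highest mean. For 9 genes, among them Ndufb5, Uqcrc2, Uqcrb, Ndufa3 and Cox6c, that probe set was of the _f_at type, whose probes may also match related genes. By complex they were 29 subunits of complex I, 4 of complex II, 8 of complex III, cytochrome c (1 gene), 15 of complex IV, 14 of ATP synthase and 2 complex I assembly factors, Ndufaf1 and Ndufaf4, which are no subunits but carry the symbol. Subunits encoded by mitochondrial DNA had 0 single-gene probe sets here. No single-gene probe set measured Cox4i2, Ndufa4, Ndufa4l2 or Atp5g3, and 10 probe sets annotated to several genes, among them those of Ndufs6, Ndufb4, Ndufa11, Ndufs5 and Cox7c, were left out.

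The respiratory chain passes electrons from NADH (complex I) and succinate (complex II) through ubiquinone to complex III, then by cytochrome c to complex IV, which reduces oxygen to water. Complexes I, III and IV pump protons across the inner mitochondrial membrane, and ATP synthase lets them return to make ATP. In other cell systems, hypoxia-inducible factor 1 is known to shift cells from respiration towards glycolysis and to exchange individual subunits of the chain.

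B16-F10 comes from a C57BL/6J melanoma, and all cells were grown in RPMI medium with serum. Low oxygen (1%, 24 h) was applied in a Billups-Rothenberg chamber (3 hypoxia arrays, 2 controls). Experiments 1 and 2 used an incubator with regulated oxygen flow (3 hypoxia arrays and 2 controls each), and all controls were at 21% oxygen for a time the labels do not give. Experiment 3 held 2 control arrays, 2 arrays after 24 h at 100 µM cobalt chloride (CoCl2, a chemical that mimics hypoxia) and 2 at 200 µM. Each array gave log2 expression values, and a change is treated minus own controls in log2 units ± SE from a limma model over all 21 arrays, called at an adjusted p under 0.05 over the 8251 genes. The number of arrays limits the precision, and the labels call the arrays of a group biological replicas without saying how the cultures were kept apart, so the p-values cover only how these arrays varied.

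Of 10 melanocyte markers 8 were measured, and 5 of them lay above the 75th percentile of all genes. The arrays of experiment 3 stood apart in RNA quality. The Actb 3′ minus 5′ control value, which rises with degraded or incompletely copied RNA, was between 0.15 and 0.50 on the 15 arrays of the other sets. Experiment 3 had 1.41 and 1.62 in controls, 2.36 and 2.16 at 100 µM, and 1.47 and 0.50 at 200 µM. The Gapdh value was between 0.07 and 0.52 in the hypoxia sets and between 0.12 and 2.21 on the experiment 3 arrays. Both experiment 3 controls lay below all 6 other controls for 31 of the 73 genes (42.5%), against 16.5% of all genes. The Actb value is given again, or used as a covariate, beside the main counts from experiment 3. The covariate's slope comes from arrays of the same group. Within a group the Actb value differed most at 200 µM (1.47 and 0.50), so results with the covariate rest largely on that pair.

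The promoters of Ndufaf4 and Ndufv3, the genes called lower and higher in each of the 3 hypoxia sets, are shown for context, as the 250 bases before the RefSeq start (build GRCm38.p6), 5′ to 3′ on the gene's strand. Ndufaf4 lies on the plus strand at chr4:24897833-24898082 and Ndufv3 on the plus strand at chr17:31519865-31520114. Capitals mark the palindrome bound by nuclear respiratory factor 1 (NRF1), a regulator of respiratory genes.
Ndufaf4: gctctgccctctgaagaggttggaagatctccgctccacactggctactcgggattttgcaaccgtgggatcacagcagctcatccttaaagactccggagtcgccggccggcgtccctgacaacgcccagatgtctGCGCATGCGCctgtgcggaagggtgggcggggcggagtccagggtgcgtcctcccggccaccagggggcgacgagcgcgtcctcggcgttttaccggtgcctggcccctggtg
Ndufv3: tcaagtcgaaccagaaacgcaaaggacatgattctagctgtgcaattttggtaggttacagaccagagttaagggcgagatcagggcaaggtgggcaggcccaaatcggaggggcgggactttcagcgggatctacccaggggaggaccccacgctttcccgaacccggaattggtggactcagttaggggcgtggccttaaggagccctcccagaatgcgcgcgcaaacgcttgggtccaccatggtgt
The palindrome begins 113 bases before the Ndufaf4 start. Of the 73 genes 59 had a RefSeq window (250 bases before and 50 after the start), and on either strand 5 of them (8.47%) held the NRF1 palindrome, against 1.07% of all 27025 genes with a window. These were Uqcrc1, Cox6a1, Atp5g2, Atp5k and Ndufaf4. The letters CCGGAAG, bound by ETS factors such as GABPA, were in 16 windows (27.1%, against 9.93% of all). The core of the hypoxia response element, ACGTG, was in 17 (28.8%, against 21.8%), and Ndufv3 holds it 11 bases after its start. A motif match is a description of letters, not of binding.

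Low oxygen changed 20 of the 73 respiratory genes in the model over all arrays, and 38 with the hypoxia-set arrays alone. For the mean of the 3 sets, 4 of 73 rose (5.48%) and 16 fell (21.9%). The share of falls was near that of all genes, of which 12.6% were called higher and 19.5% lower. The split was 6 higher and 12 lower after median centring of the arrays, and 8 and 15 after quantile normalisation. The median change of the 73 genes was -0.04, against 0.01 for all genes. By complex, 7 of 29 genes fell and 2 rose in complex I, 2 of 4 fell in complex II, 4 of 8 fell and 1 rose in complex III, 0 of 15 fell and 1 rose in complex IV, and 1 of 14 fell in ATP synthase. For complex IV limma gave 3 genes higher and 0 lower at an unadjusted p under 0.05. Its probe sets were weaker, with a median level of 6.48 in the controls of the hypoxia sets, against 9.55 for complex III. Above the median gene lay 9 of 15 complex IV genes and 8 of 8 of complex III, so a flat value shows less in complex IV. In bulk RNA, fewer cells of one kind and less RNA per cell cannot be told apart. The plot of each gene's change shows these values by complex.

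**Figure D1:**
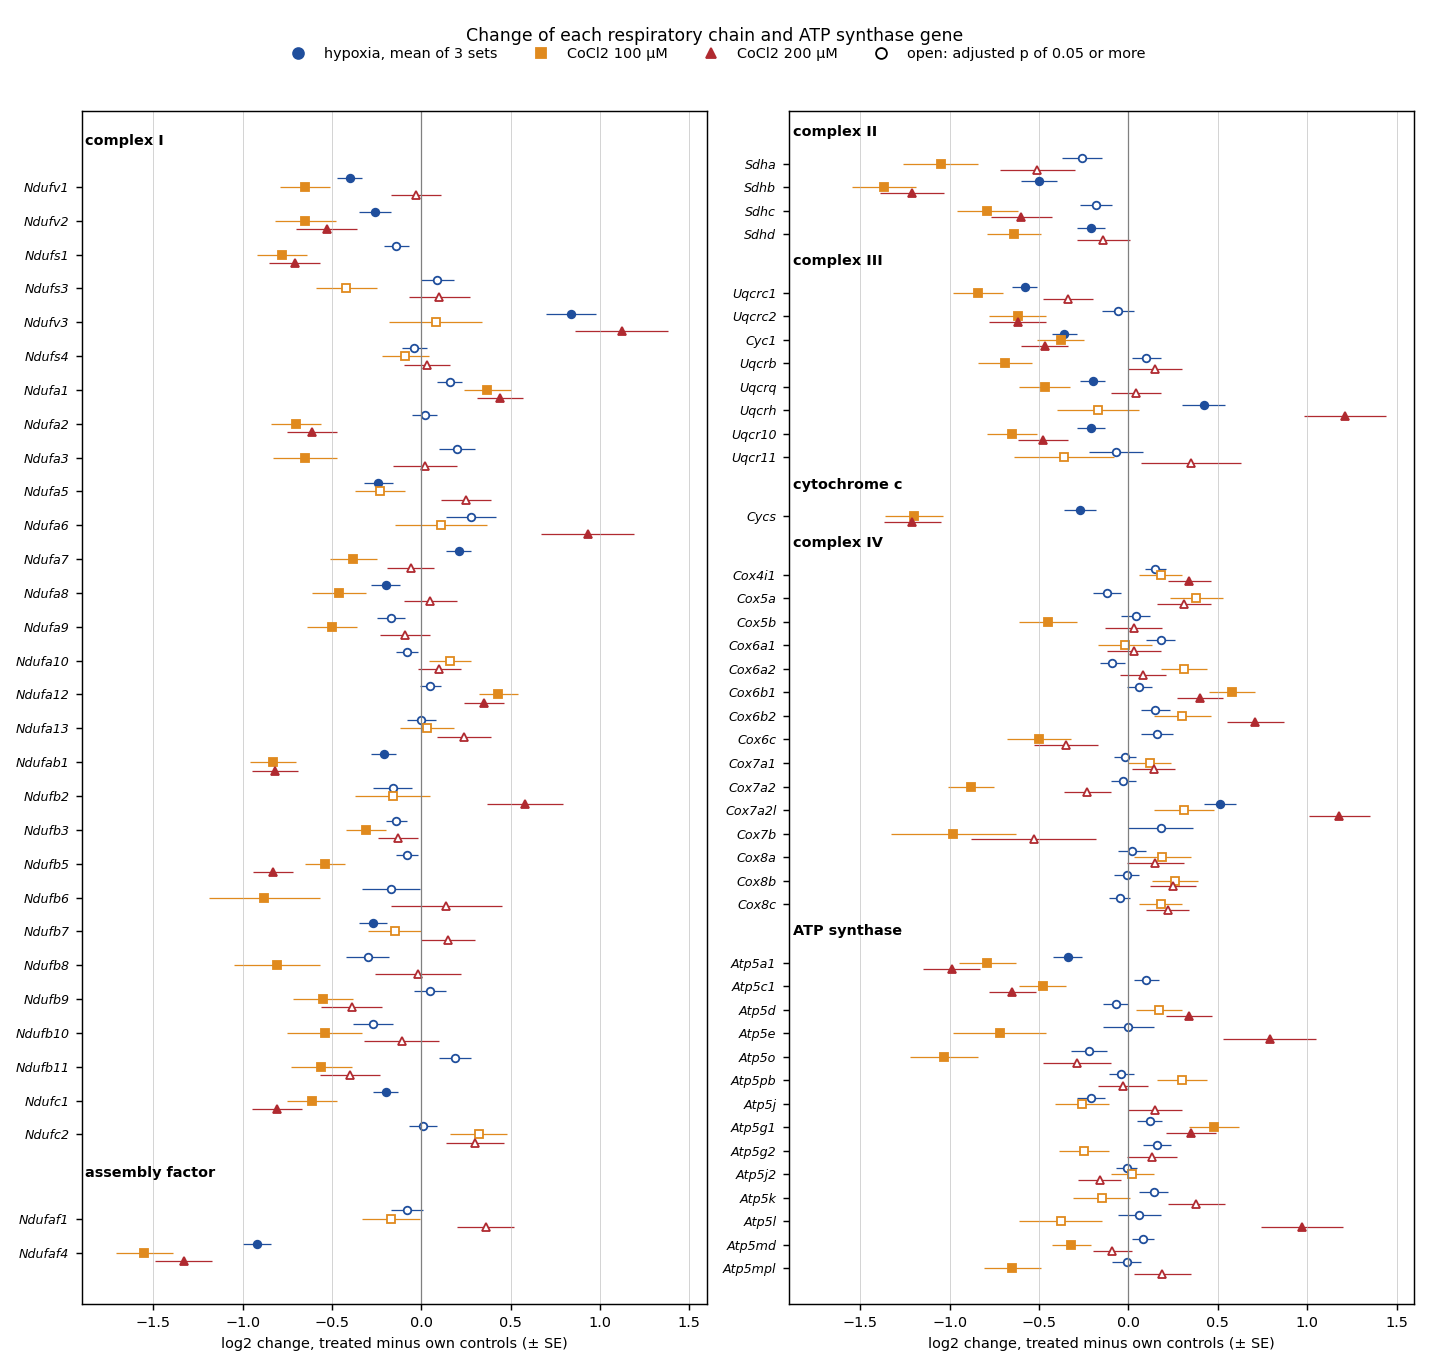
Change of each of the 73 genes (log2 units, horizontal axis, ± SE) for the hypoxia mean (circles), CoCl2 at 100 µM (squares) and CoCl2 at 200 µM (triangles), by complex; filled symbols passed an adjusted p of 0.05. Ndufaf4 lies farthest left for hypoxia (-0.92) and at 100 µM (-1.55), and complex II genes lie left of 0 for all 3.

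The deepest fall was not in a subunit. Ndufaf4, a factor needed to build complex I, had 4.13, 4.0 and 4.0 in chamber hypoxia, against 4.98 and 5.12 in chamber controls. In experiment 1 it had 4.0, 3.64 and 4.07 in hypoxia, against 4.87 and 4.65 in controls. In experiment 2 it had 3.95, 4.09 and 4.13 in hypoxia, against 4.95 and 4.94 in controls. All 9 hypoxia arrays lay below both of their own controls. The mean change was -0.92 ± 0.08 (0.53-fold, adjusted p = 1.5e-08). It was the only one of the 73 genes called lower in all 5 treatment sets, the CoCl2 doses included. It is a dim probe set, under the 40th percentile of genes, and in a fit over all probe sets a second one for Ndufaf4 did not pass (0.10, adjusted p = 0.3). The other assembly factor, Ndufaf1, did not pass (-0.08, adjusted p = 0.54).

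The NADH-oxidising end of complex I moved in opposite directions. Ndufv3, an accessory subunit at this tip, rose in each hypoxia set. It had 9.07, 8.69 and 8.95 in chamber hypoxia, against 8.07 and 8.23 in controls, 8.90, 9.04 and 8.99 in hypoxia of experiment 1, against 8.12 and 8.28 in controls, and 9.48, 9.47 and 9.38 in hypoxia of experiment 2, against 8.47 and 8.43 in controls. The 9 hypoxia arrays all exceeded both own controls, and the mean rise was 0.84 ± 0.14 (1.79-fold, adjusted p = 4.7e-05). Ndufv1, the core subunit that binds FMN and takes electrons from NADH, fell by 0.40 ± 0.07 (adjusted p = 0.00017). It had 9.63, 9.42 and 9.52 in chamber hypoxia against 10.06 and 10.00 in controls, and its 9 hypoxia arrays were all below both own controls. Its iron-sulphur partner Ndufv2 fell by 0.26 (adjusted p = 0.031). The accessory subunits Ndufb7 (-0.27), Ndufa5 (-0.24), Ndufa8 (-0.20) and Ndufc1 (-0.20) and the acyl carrier protein Ndufab1 (-0.21) fell slightly (a second Ndufb7 probe set gave -0.05), while Ndufa7 rose by 0.21 (adjusted p = 0.02). The other 20 complex I subunits did not pass.

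Complex II, succinate dehydrogenase, had all 4 measured values below 0. Sdhb, its iron-sulphur subunit, had 9.77, 9.64 and 9.75 in chamber hypoxia, against 10.36 and 10.33 in controls. Experiment 1 gave 9.50, 9.70 and 9.32 in hypoxia, against 9.96 and 10.08 in controls, and experiment 2 gave 9.92, 10.02 and 10.09, against 10.39 and 10.36. All 9 hypoxia arrays were below both own controls, with a mean change of -0.50 ± 0.10 (0.707-fold, adjusted p = 0.00027). The membrane anchor Sdhd fell by 0.21 (adjusted p = 0.041), while the flavoprotein Sdha (-0.26, adjusted p = 0.075) and the anchor Sdhc (-0.18, adjusted p = 0.15) did not pass.

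In complex III the core subunit Uqcrc1 fell by 0.58 ± 0.07 (0.67-fold, adjusted p = 1.5e-06). It had 9.52, 9.41 and 9.38 in chamber hypoxia against 10.23 and 10.12 in controls, 9.32, 9.31 and 9.23 in hypoxia of experiment 1 against 9.85 and 9.98, and 9.55, 9.49 and 9.41 in hypoxia of experiment 2 against 9.93 and 9.77. No hypoxia array reached its own controls. Cyc1, cytochrome c1, fell by 0.36 ± 0.07 (adjusted p = 0.00025), but its second probe set did not pass (-0.11, adjusted p = 0.38). The small subunits Uqcr10 (-0.21) and Uqcrq (-0.20) also fell, and the other core subunit Uqcrc2 did not pass (-0.06, adjusted p = 0.7). Uqcrh, the hinge protein next to cytochrome c1, rose by 0.42 ± 0.12 (adjusted p = 0.0084). Its values overlapped in the chamber set (9.03, 8.90 and 9.04 in hypoxia against 8.96 and 8.84 in controls) but not in experiment 1 (9.04, 9.27 and 8.95 against 8.32 and 8.36) or experiment 2 (9.40, 9.41 and 9.48 against 8.98 and 9.03). Cycs, the soluble electron carrier cytochrome c, fell by 0.27 (adjusted p = 0.019).

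Among complex IV genes the one that rose was Cox7a2l, a Cox7a-like protein. It had 8.67, 8.65 and 8.60 in chamber hypoxia, against 8.29 and 8.44 in controls. In the incubator it had 8.79, 9.11 and 8.93 in hypoxia of experiment 1 against 8.26 and 8.41 in controls, and 8.88, 8.97 and 8.72 in hypoxia of experiment 2 against 8.31 and 8.09. Its 9 hypoxia arrays all exceeded both own controls (0.51 ± 0.09, 1.43-fold, adjusted p = 7.1e-05). The related Cox7a2 (-0.03) and the muscle form Cox7a1 (-0.02) did not pass. Nor did the general isoforms Cox4i1 (0.15), Cox6a1 (0.18), Cox6b1 (0.06) and Cox8a (0.02), the muscle isoforms Cox6a2 (-0.09) and Cox8b (-0.01), the testis isoforms Cox6b2 (0.15) and Cox8c (-0.05), or Cox5a (-0.12), Cox5b (0.04), Cox6c (0.16) and Cox7b (0.18). Of ATP synthase the F1 alpha subunit Atp5a1 fell by 0.34 ± 0.08 (adjusted p = 0.003), and the c-ring genes Atp5g1 (0.12) and Atp5g2 (0.16) did not pass. Most of the genes were bright: the mean of 59 of the 73 lay above the median gene. A flat value does not show an unchanged transcript where the probe set is dim. Under the 40th percentile of genes lay 11 of the 73, among them Ndufs4, Sdha, Cox5a, Cox7a1, Cox8a, Atp5pb and Atp5j2.

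**Figure D2:**
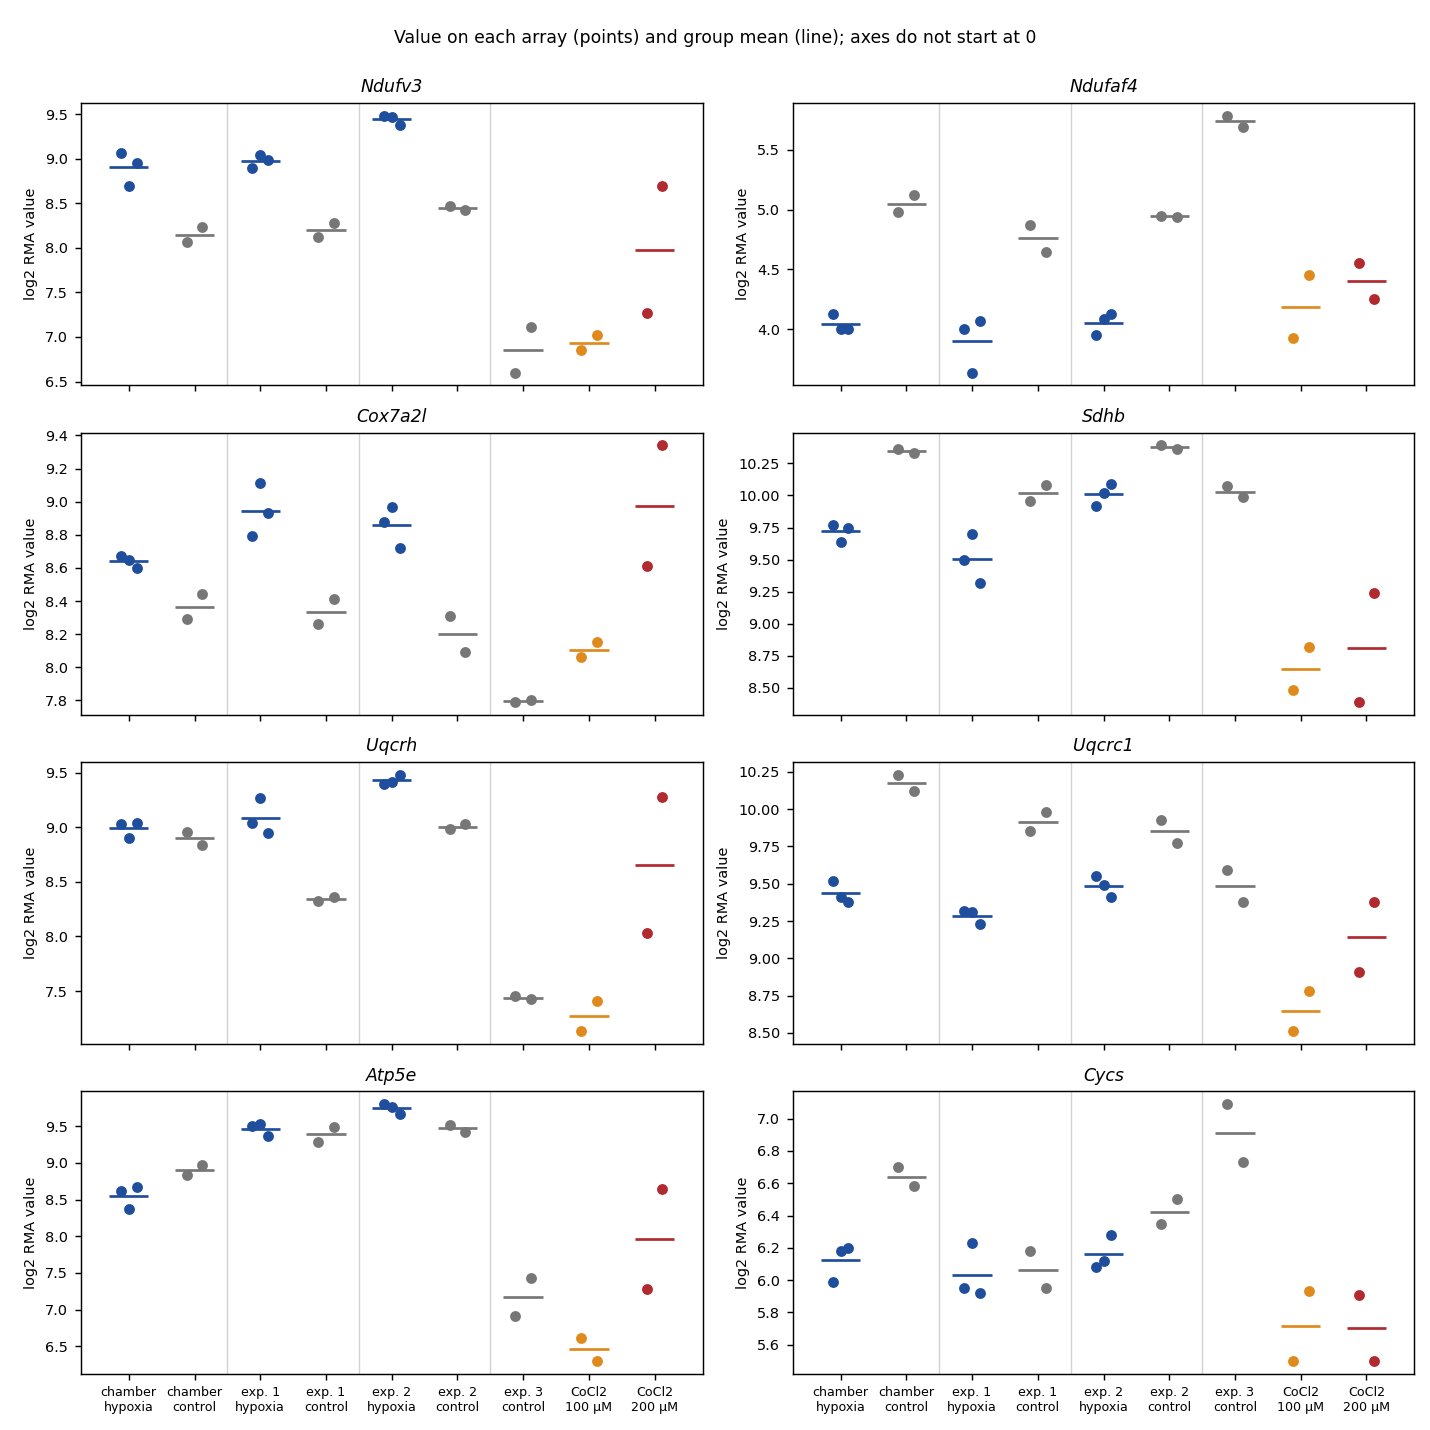
Log2 value on every array for 8 genes (points; lines are group means), treated left of its control in the 3 hypoxia sets and experiment 3 as control, 100 µM and 200 µM. Ndufv3 and Cox7a2l lie above, and Ndufaf4, Sdhb and Uqcrc1 below, both own controls on all 9 hypoxia arrays; on the right the 200 µM arrays of Ndufv3, Uqcrh and Atp5e lie far apart.

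The hypoxia sets differed in how many genes passed. In the chamber 2 rose and 17 fell (background 7.96% higher and 15.1% lower). In experiment 1 the counts were 3 and 4 (7.57% and 10.7%), and in experiment 2 they were 3 and 1 (7.55% and 7.79%). Quantile normalisation gave 3 higher and 10 lower for the chamber, 3 and 9 for experiment 1 and 3 and 4 for experiment 2, and median centring gave 4 and 2 for experiment 1. The median change was -0.18 for the chamber (all genes 0.07), -0.07 for experiment 1 (all genes -0.03) and 0.02 for experiment 2 (all genes -0.03). Tested directly, the chamber change differed from the incubator change for 0 of the 73 genes by limma (2.16% of all genes), with 4 higher and 11 lower at an unadjusted p under 0.05. With array weights the difference was called for 22 genes (4 higher, 18 lower), and for 16 with the 15 hypoxia-set arrays alone (2 higher, 14 lower). Experiments 1 and 2 differed for 0 genes (0.327% of all genes), with 0 higher and 1 lower at an unadjusted p under 0.05 and 0 called in any alternative run. Each set had 1 device and its own controls, so device and set cannot be told apart for the chamber. The chamber count fell to 4 without either chamber control, to 11 without hypoxia array 1 and to 8 without array 2. The count of 7 in experiment 1 fell to 3 without either control and to 4 without hypoxia array 3. The hypoxia mean count of 20 fell to 12 without chamber control 1 or experiment 1 control 1 and to 13 without experiment 1 control 2. It was 38 (12 higher, 26 lower) with the hypoxia-set arrays alone, where 16% of all genes were called higher and 22.7% lower. Of the 20 calls 9 held under each of the 24 alternatives that gave a value: Ndufaf4, Ndufv1, Ndufv3, Sdhb, Uqcrc1, Cyc1, Uqcrh, Cox7a2l and Atp5a1.

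At 100 µM CoCl2 most calls among the respiratory genes were falls. Of 73 genes 39 fell and 4 rose, against a background of 20.7% lower and 17.6% higher, and the median change was -0.38, against 0.10 for all genes. The falls covered 17 of 29 complex I genes, 4 of 4 of complex II, 6 of 8 of complex III, cytochrome c, 4 of 15 of complex IV and 6 of 14 of ATP synthase. The 4 rises were Cox6b1 (0.58), Atp5g1 (0.48), Ndufa12 (0.43) and Ndufa1 (0.37). Their probe sets had means of 5.94, 6.74, 4.53 and 5.61, below the median of the 73 genes (8.89 in the hypoxia-set controls). In a fit over all probe sets, second ones for Atp5g1 (0.29) and Ndufa1 (0.19) were not called. These arrays also had the highest Actb 3′ minus 5′ values, 2.36 and 2.16, and with that value as a covariate 15 genes fell and 3 rose (12.8% and 8.08% of all genes). With the arrays of experiment 3 alone 14 fell and 0 rose (11.2% and 3.36%), and after quantile normalisation 28 fell and 9 rose. Without 100 µM array 1 the counts were 23 lower and 0 higher, and without control array 1 they were 25 and 2. The melanocyte markers moved with the treatment as well: the log2 of their summed signal was 13.58 to 13.67 in controls, 12 to 12.20 at 100 µM and 10.54 to 10.61 at 200 µM. That of the 5 leukocyte markers measured was 6.98 to 7.06 in controls, 8.09 to 8.19 at 100 µM and 8.68 to 9.50 at 200 µM. For the mean of both doses, 2 of these 5 were called higher, against 23.3% of all genes. So were 3 of 4 epithelial, 2 of 6 fibroblast, 0 of 4 endothelial and 0 of 5 muscle markers. The part of these markers in the respiratory genes was not tested.

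At 200 µM 14 of 73 genes rose and 15 fell, near the background of 19.7% higher and 22.3% lower, with a median of 0.03 (all genes 0.11). The balance depended on single arrays: 9 rose and 21 fell without 200 µM array 2 (Actb 0.50), 20 and 13 without 200 µM array 1 (Actb 1.47), and 6 and 14 without control array 1. With the Actb covariate 10 rose and 20 fell, with the replicate block 8 and 15, and with the arrays of experiment 3 alone 3 and 10 (6.45% and 14.8% of all genes). Complex I had 5 rises and 6 falls, complex II 2 falls, complex III 1 rise and 3 falls, complex IV 4 rises and 0 falls, and ATP synthase 4 rises and 2 falls. At both doses 15 genes fell and 4 rose (Ndufa1, Ndufa12, Cox6b1 and Atp5g1), and 23 genes that fell at 100 µM were not called at 200 µM. These overlaps were not counted over all genes, so they only describe the 73 and are no result about them. The doses share their 2 control arrays.

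**Figure D3:**
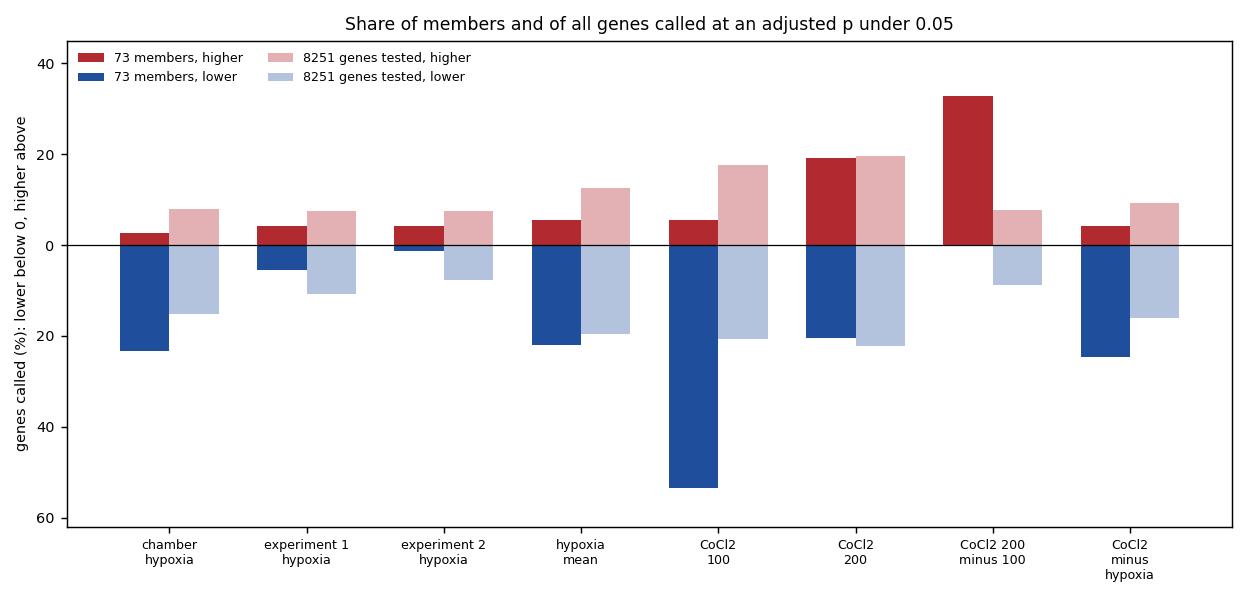
Share of the 73 genes (dark bars) and of all 8251 genes (light bars) called higher (above 0) and lower (below 0) in each comparison, in percent. At 100 µM CoCl2 53.4% of the respiratory genes were lower against 20.7% of all genes; for the hypoxia mean the lower shares were 21.9% and 19.5%.

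A group of genes fell at both doses under each alternative run: Ndufaf4, Ndufs1, Ndufa2, Ndufab1, Sdhb, Cycs and Atp5a1. Cycs had 7.09 and 6.73 in controls, 5.50 and 5.93 at 100 µM, and 5.91 and 5.50 at 200 µM, with changes of -1.20 ± 0.16 (0.436-fold, adjusted p = 6.2e-06) and -1.21 ± 0.16 (0.434-fold, adjusted p = 3.5e-06). The 4 CoCl2 arrays lay clear of the controls. Sdhb had 10.07 and 9.99 in controls, 8.48 and 8.82 at 100 µM, and 8.39 and 9.24 at 200 µM (-1.37 and -1.21; adjusted p = 4.1e-06 and 1.3e-05). Ndufaf4 had 5.78 and 5.69 in controls, 3.93 and 4.45 at 100 µM, and 4.55 and 4.25 at 200 µM (-1.55 and -1.33; adjusted p = 1.1e-07 and 5.7e-07). Atp5a1 had 10.57 and 10.33 in controls, 9.46 and 9.87 at 100 µM, and 9.57 and 9.34 at 200 µM (-0.79 and -0.99). For each of these genes all 4 CoCl2 arrays were below both controls. The iron-sulphur core subunit Ndufs1 changed by -0.78 and -0.71, Ndufab1 by -0.83 and -0.82, and the accessory subunit Ndufa2 by -0.70 and -0.61.

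The other complex II genes followed Sdhb at 100 µM. Sdha changed by -1.05 ± 0.21 at 100 µM (adjusted p = 0.00039) and by -0.51 at 200 µM (adjusted p = 0.05, not called), Sdhc by -0.79 and -0.60 (called at both), and Sdhd by -0.64 and, not called, -0.14. The Sdha probe set is dim, under the 40th percentile of genes, with 2.79 and 3.27 at 100 µM against 4.08 and 4.09 in controls. With the Actb covariate Sdhb kept its call at 100 µM, while Sdha (-0.36, adjusted p = 0.22), Sdhc (-0.28, adjusted p = 0.33) and Sdhd (-0.19, adjusted p = 0.43) did not. Further falls at 100 µM included the stalk subunit Atp5o (-1.03), Cox7a2 (-0.88), Ndufb6 (-0.88), Uqcrc1 (-0.84) and Cox7b (-0.98). Cox7b rested on 1 array: it had 8.97 and 8.87 in controls and 6.88 and 8.99 at 100 µM, and its change was 0.07 without 100 µM array 1. Called lower at 100 and 200 µM were Ndufb5 (-0.54 and -0.83), Ndufc1 (-0.61 and -0.81), Uqcrc2 (-0.62 and -0.62) and the rotor subunit Atp5c1 (-0.48 and -0.65). Cyc1 fell at both doses (-0.38 and -0.47), but its second probe set gave 0.18 and 0.23, neither called. Cox6c fell at 100 µM (-0.50), with other probe sets at 0.32 and 0.39, and Cox5b fell there as well (-0.45). Other falls at 100 µM that were not called at 200 µM were those of Ndufb8 (-0.81), Uqcrb, which binds ubiquinone in complex III (-0.69), Ndufa3 (-0.65), Atp5mpl (-0.65), Ndufb11 (-0.56), Ndufb9 (-0.55), Ndufb10 (-0.54), Ndufa9 (-0.50), Uqcrq (-0.47), Ndufa8 (-0.46), Ndufa7 (-0.38), Atp5md (-0.32) and Ndufb3 (-0.31). Of these, Ndufa7 had risen in hypoxia, and a second probe set of Ndufa3 gave 0.09.

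The rises at 200 µM were led by Uqcrh (1.21 ± 0.23, 2.32-fold, adjusted p = 0.00017), Cox7a2l (1.18 ± 0.17, 2.26-fold, adjusted p = 5.8e-06) and Ndufv3 (1.12 ± 0.26, 2.18-fold, adjusted p = 0.0016), the same 3 genes that led the rises in hypoxia. Uqcrh had 7.45 and 7.43 in controls, 7.13 and 7.41 at 100 µM, and 8.03 and 9.28 at 200 µM. Cox7a2l had 7.79 and 7.80 in controls, 8.06 and 8.15 at 100 µM, and 8.61 and 9.34 at 200 µM. Ndufv3 had 6.60 and 7.11 in controls, 6.85 and 7.02 at 100 µM, and 7.27 and 8.69 at 200 µM. The experiment 3 controls were low for all 3. Their means were 7.44 (Uqcrh), 7.80 (Cox7a2l) and 6.86 (Ndufv3), against 8.75, 8.30 and 8.27 in the hypoxia-set controls. With the Actb covariate Uqcrh (0.60) and Cox7a2l (0.86) stayed called at 200 µM. Ndufv3 did not (0.51, adjusted p = 0.072 by limma). Each of these genes was highest on 200 µM array 2, the array with the lowest Actb value of experiment 3. Without that array Uqcrh (0.59, adjusted p = 0.0029) and Cox7a2l (0.81, adjusted p = 0.0002) stayed called and Ndufv3 did not (0.41, adjusted p = 0.072). Atp5l, subunit g of ATP synthase (0.97), Ndufa6 (0.93), Atp5e, its epsilon subunit (0.79), and Ndufb2 (0.58) were also called higher and lost the call without that array (0.45, 0.32, 0.11 and 0.10). They lost it without control array 1 as well (0.68, 0.66, 0.53 and 0.38). A second Ndufb2 probe set fell by 0.58 at 200 µM (adjusted p = 0.0034), so the direction of Ndufb2 is uncertain, and a second Atp5l probe set gave 0.11. Smaller rises were those of Cox6b2 (0.71, with other probe sets at 0.09 and 0.02), Ndufa1 (0.44), Cox6b1 (0.40), Ndufa12 (0.35), Atp5g1 (0.35), Cox4i1 (0.34) and the F1 subunit Atp5d (0.34). Second probe sets of Ndufa1 (0.18) and Cox4i1 (0.09) were not called in the fit over all probe sets, while that of Atp5g1 was (0.36). The probe sets of Cox6b2 and Ndufa12 are dim, under the 40th percentile of genes. Among the complex IV and c-ring genes, those called at neither dose were Cox5a, Cox6a1, Cox6a2, Cox7a1, Cox8a, Cox8b, Cox8c and Atp5g2.

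Set against each other, 200 µM was above 100 µM for 24 of 73 genes and below it for 0, against a background of 7.83% higher and 8.85% lower; 31 genes were higher and 2 lower at an unadjusted p under 0.05. The largest differences were those of Atp5e (1.51 ± 0.26, 2.84-fold, adjusted p = 0.00034), Uqcrh (1.38 ± 0.23), Atp5l (1.34 ± 0.23), Ndufv3 (1.05 ± 0.26), Ndufb6 (1.02 ± 0.31) and Cox7a2l (0.87 ± 0.17). The SEs come from the spread shared over all groups, while the median SD of the 73 genes was largest at these doses. Atp5e had 7.28 and 8.65 at 200 µM and 6.61 and 6.30 at 100 µM, and lay below its controls (6.91 and 7.43) at 100 µM alone. It was called lower at 100 µM (-0.72) and higher at 200 µM. RNA quality differed between the doses, with Actb values of 1.47 and 0.50 at 200 µM and 2.36 and 2.16 at 100 µM. The slope of the Actb covariate rests largely on the difference between the 200 µM arrays. With the Actb covariate 0 of 73 genes were called between the doses, 0 with the arrays of experiment 3 alone, and 7 (all higher) without 200 µM array 2. No call between the doses held under each alternative.

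**Figure D4:**
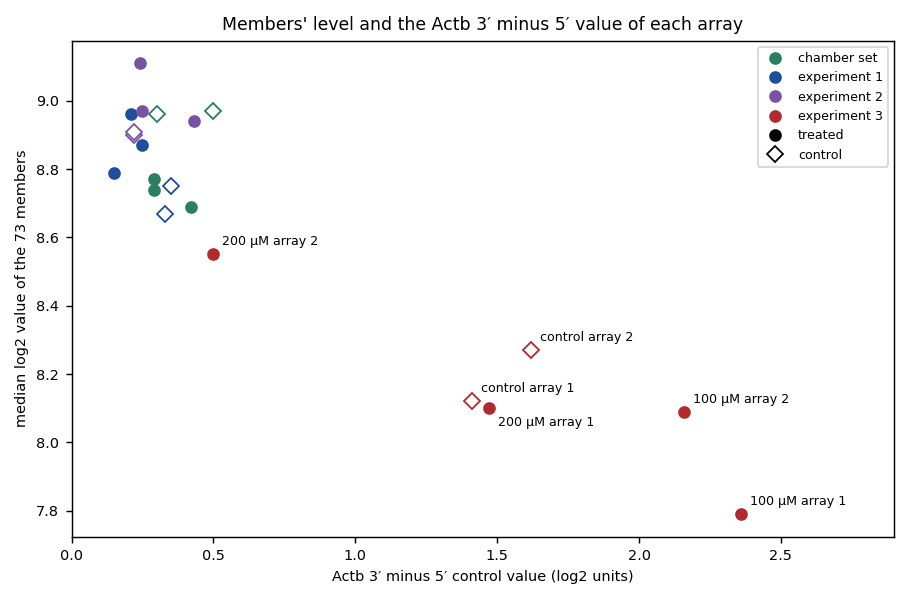
Median log2 value of the 73 genes on each array (vertical axis) against its Actb 3′ minus 5′ value (horizontal axis, log2 units); filled points are treated arrays and open diamonds controls. The arrays of the hypoxia sets lie between 0.15 and 0.50, and in experiment 3 the median is 8.55 on 200 µM array 2 (0.50) and 7.79 on 100 µM array 1 (2.36).

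The changes under CoCl2, as the mean of both doses, were then set against those under hypoxia. They differed for 21 genes, with 18 lower under CoCl2 and 3 higher (background 16% lower and 9.33% higher). Cycs differed most (-0.93 ± 0.17, adjusted p = 0.00023), then Sdhb (-0.79 ± 0.19, adjusted p = 0.0029), Ndufa2 (-0.68), Ndufb11 (-0.67), Atp5c1 (-0.67), Ndufb5 and Ndufab1 (both -0.61). Ndufa2, Ndufb5 and Atp5c1 had not passed in the hypoxia mean (0.02, -0.08 and 0.10). Called higher under CoCl2 were Cox5a (0.46), Cox6b1 (0.43) and Ndufa12 (0.33). None of the 3 kept the call with the replicate block (adjusted p = 0.067, 0.094 and 0.14 by limma), which gave 0 genes higher and 12 lower. Cox5a and Ndufa12 are dim, under the 40th percentile, and a second Cox5a probe set gave 0.04 (adjusted p = 0.83). The count was 11 and 13 without experiment 3 controls 1 and 2, and 33 without 100 µM array 2 or 200 µM array 2, with 10 genes higher without 200 µM array 1. Signs and calls over the 5 treatment sets were counted for the 73 genes alone, so no share of all genes stands beside them. The doses also share their controls. In each set 18 genes had a negative change, among them all of complex II, Cyc1, Cycs, Uqcrc1, Ndufv1 and Atp5a1. Ndufv3, Ndufa1, Cox4i1 and Cox7a2l had a positive change in each, and 19 genes were called in none of the sets: the complex I genes Ndufs3, Ndufs4, Ndufa10, Ndufa13 and Ndufc2, Uqcr11, Cox5a, Cox6a1, Cox6a2, Cox7a1, Cox8a, Cox8b, Cox8c, Atp5pb, Atp5j, Atp5g2, Atp5j2, Atp5k and Ndufaf1.

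Genes that serve the chain were counted in the same way, beside all genes, of which 19.5% were lower and 12.6% higher in hypoxia. For CoCl2 these shares were 20.7% lower and 17.6% higher at 100 µM, and 22.3% lower and 19.7% higher at 200 µM. The counts at both doses come from the experiment 3 arrays with Actb values up to 2.36, whose part in them was not tested. Of 62 mitochondrial ribosome genes, which translate the subunits encoded by mitochondrial DNA, 40 fell and 1 rose (median -0.29, all genes 0.01), with Mrpl12 (-0.73), Mrps11 (-0.69), Mrpl37 (-0.69) and Mrps22 (-0.67) the deepest. At 100 µM CoCl2 34 fell and 4 rose, and at 200 µM 24 fell and 7 rose. Of 17 further assembly factors 7 fell and 0 rose (median -0.18), led by the complex II factor Sdhaf1 (-0.56), the complex IV factor Coa3 (-0.48), the mitochondrial mRNA stabiliser Lrpprc (-0.46) and Aifm1 (-0.45). They numbered 10 lower and 0 higher at 100 µM, and 9 lower and 1 higher at 200 µM. Of 33 carrier, channel and import genes 12 fell and 3 rose (median -0.15), with the dicarboxylate carrier Slc25a10 (-0.90), the import chaperones Timm8a1 (-0.86) and Timm9 (-0.79) and the chaperonin Hspe1 (-0.65). Of 15 genes for ubiquinone and electron entry 4 fell and 0 rose (median -0.04), among them Coq7 (-0.55), Etfb (-0.46), Coq4 (-0.31) and Nnt (-0.28). Of 17 regulators of mitochondrial transcription and biogenesis 5 fell, among them the coactivator Pprc1 (-0.78) and the DNA-binding protein Ssbp1 (-0.68), and the transcription factor Myc rose by 0.71 (median of the list -0.05). At 100 µM CoCl2 18 of the carrier and import genes fell and 3 rose, 5 of the ubiquinone and electron entry genes fell and 2 rose, and 4 of the regulators fell and 1 rose. At 200 µM the counts were 13 and 2 for the carrier and import genes, 5 and 3 for the electron entry genes, and 4 and 2 for the regulators. The falls among the regulators and the electron entry genes lay within a few genes of the share of all genes, and are no result about those lists. The electron entry list holds Cox6b1, which is also a complex IV subunit.

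Of 9 hypoxia-linked regulators of respiration 5 rose and 1 fell (median 0.35). The mitophagy receptor Bnip3 rose by 2.76 ± 0.09, the Myc antagonist Mxi1 by 1.94 ± 0.10, the complex IV-associated Higd1a by 1.64 ± 0.10 and Pdk1, the kinase that blocks pyruvate entry to the citric acid cycle, by 1.53 ± 0.07. The ATP synthase inhibitor Atpif1 fell by 0.33. At 100 µM and 200 µM CoCl2 the changes were 3.55 and 3.39 for Bnip3, 1.64 and 2.02 for Higd1a, and 1.90 and 0.69 for Pdk1. Of 14 glycolysis genes 13 rose and 0 fell in hypoxia (median 0.64), among them Pfkp (2.75), Slc2a1 (2.38), Hk2 (2.07) and Eno2 (1.88). At 100 µM CoCl2 12 rose and 0 fell (median 0.83), and at 200 µM 13 rose and 0 fell (median 1.17).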

How the data were processed

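Total RNA from B16-F10 cells was hybridised to 21 Affymetrix Murine Genome U74Av2 arrays, in 9 label groups. The authors deposited 1 log2 value for each probe set on each array. GCOS 1.2 and RMA are named in the submitters' processing notes, without the RMA version. Whether all arrays were normalised together is not given in the sources used. The authors' log2 values were used without further scaling. Of 12488 probe sets, 10833 had 1 gene in the platform annotation, 10817 were matched to current RefSeq symbols and 16 kept an older one. Controls whose titles carry no experiment number were assigned to the chamber set.

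With limma 3.58.1 in R 4.3.3, 1 mean per group was fitted (12 residual degrees of freedom, 20.9 after moderation). Tests were two-sided, with p-values adjusted by Benjamini-Hochberg over 8251 genes. Samples were not paired by replicate number: residuals of same-numbered arrays correlated between -0.37 and 0.235. The members and gene lists were chosen with earlier results of these data known. By rule, up to 8 called genes in each direction were named for the hypoxia mean and each dose, up to 6 for each difference between treatments, up to 4 per further list, and a fixed set of isoforms, complex II, Cyc1 and Cycs. The fit was tested on simulated data. Alternatives covered scaling, probe set choice, dim genes, variance moderation, array weights, a replicate block, RNA quality, the arrays fitted and leaving out each array.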

Additional observations from a re-analysis of the deposited data

Results flagged for a closer look

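The changes of 21 of the 73 respiratory genes differed between CoCl2 and hypoxia by the direct test of the difference (limma adjusted p under 0.05), with 18 lower and 3 higher under CoCl2. The CoCl2 arrays had Actb 3′ minus 5′ values from 0.50 to 2.36 and the hypoxia-set arrays from 0.15 to 0.50. With that value as a covariate the count was 21 as well (18 lower, 3 higher). The experiment 3 controls had 1.41 and 1.62, with the 100 µM arrays above (2.36 and 2.16) and a 200 µM array below (0.50). With the doses averaged, the covariate could move this contrast little, so the equal count does not test the part of RNA quality. Treatment and experiment cannot be told apart here, since CoCl2 was given in experiment 3 alone.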

How the results depend on the processing

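The counts below are of genes called among the 73, and where no cause is named it was not tested. With array weights they were 36 for the hypoxia mean (20 in the reported model), 40 for the chamber set (19), 12 for experiment 1 (7), 13 for experiment 2 (4), 26 at 100 µM CoCl2 (43), 3 for 200 minus 100 µM (24) and 22 for chamber minus incubator (0). With the replicate block they were 10 for the hypoxia mean, 7 for the chamber set, 14 for 200 minus 100 µM and 12 for CoCl2 minus hypoxia (21), and the block moved no other count by over 1.5 times. With only the arrays of the sets compared they were 38 for the hypoxia mean, 37 for the chamber set, 13 for experiment 2, 14 at 100 µM, 13 at 200 µM (29), 0 for 200 minus 100 µM and 16 for chamber minus incubator. The Actb 3′ minus 5′ covariate gave 12 for experiment 1, 8 for experiment 2, 18 at 100 µM, 0 for 200 minus 100 µM and 2 for chamber minus incubator, and quantile normalisation gave 12 for experiment 1 and 7 for experiment 2. Leaving out 1 array at a time gave 12 to 21 for the hypoxia mean, 4 to 16 for the chamber set, 3 to 6 for experiment 1, 3 to 4 for experiment 2, 23 to 45 at 100 µM, 20 to 33 at 200 µM, 7 to 33 for 200 minus 100 µM and 11 to 33 for CoCl2 minus hypoxia, and 0 in each case for the other comparisons; a lone remaining array is assumed to vary like the other groups.

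Signs turned for these genes. With the mean of all probe sets Cox6c was at 0.07 at 100 µM and 0.10 for CoCl2 minus hypoxia, and Cox7b at 100 µM was at 0.07 without 100 µM array 1 and at -2.04 without array 2. With the Actb covariate Atp5e (0.02), Ndufb6 (0.24) and Ndufb8 (0.02) turned at 100 µM. For 200 minus 100 µM it turned Atp5o (-0.46), Ndufa6 (-0.37), Ndufaf1 (-0.19), Ndufb2 (-0.11), Ndufb6 (-0.90), Ndufb8 (-0.61), Ndufs3 (-0.13), Ndufv3 (-0.43), Sdhd (-0.27), Uqcrc1 (-0.11), Uqcrh (-0.09) and Uqcrq (-0.12). The slope of this covariate comes from differences between arrays of the same group, largely those at 200 µM (1.47 and 0.50). Of the calls, 9 of 20 for the hypoxia mean, 9 of 43 at 100 µM, 12 of 29 at 200 µM, 0 of 24 between the doses and 7 of 21 for CoCl2 minus hypoxia held under each alternative that gave a value. Dim probe sets limit what a flat value shows.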
